A study of Mus musculus with 10 samples.

Results

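The 10 genes described here encode repressors of chromatin in mouse embryonic stem cells, namely Trim28, Zfp57, Setdb1, Ehmt1, Ehmt2, Suv39h1, Suv39h2, Hells, Morc3 and Kdm1a. They were chosen by name, as genes known for histone H3 lysine methylation of the H3K9 type or for silencing of retroelements, and they are 10 of the 24015 genes in the deposited count tables. All 10 were found in every library, and all 10 were among the 14220 genes that passed the filter on low counts.

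H3K9 methylation is a mark of silent chromatin. In embryonic stem cells, DNA-binding zinc finger proteins bring the scaffold protein Trim28 to retroelements and imprinted regions, and Trim28 in turn brings the methyltransferase Setdb1, which trimethylates H3K9. Ehmt1 and Ehmt2 form a pair that adds lower methylation states over broad regions, the Suv39h enzymes act on pericentromeric and some retroelement chromatin, and Hells, Morc3 and Kdm1a are further factors needed to keep repeats silent in these cells.

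The cells were embryonic stem cells derived from the inner cell mass of mouse blastocysts. A Wnt/β-catenin reporter was present in the cells of every group, and they were grown on gelatin-coated plates with leukaemia inhibitory factor (LIF). 2i is a pair of inhibitors, here a GSK3 inhibitor at 3 µM and an inhibitor of the ERK pathway at 1 µM, and cells were split every 48 h. The 5 groups of 2 RNA-seq libraries follow one another. Serum is the starting culture in serum with LIF, first 2i is 5 to 6 passages in 2i with LIF, long 2i is more than 13 passages, serum return is long 2i followed by 6 passages back in serum, and second 2i is 13 passages of 2i, 6 of serum and then 4 to 5 of 2i. The labels do not say that the 2 libraries of a group are separate cultures. A p-value here therefore reflects the spread of these libraries alone, and that spread may be technical. Library titles carry the letters LEM (replicate 1) or MLE (replicate 2), whose meaning is not given.

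The libraries held 16809070 to 27766338 counts in genes, and the 10 repressors had between 731 counts (Suv39h1) and 45585 counts (Trim28) in a library. All 10 pluripotency markers that were looked up had counts in every group, with a summed level of 4952 to 7464 CPM (counts scaled to a library total of 1000000), lowest in long 2i. Of 11 endoderm markers, 9 to 11 had counts in a group, and they summed to 40.6 to 52.8 CPM in the libraries of serum and serum return and to 5.70 to 20.0 CPM in those of the 2i groups, and 8 to 10 of 11 fibroblast markers to 14.9 to 30.4 against 2.24 to 4.63 CPM, with Twist2 at 0 throughout. Trophectoderm markers summed to 31.9 to 62.8 CPM in serum and serum return and 83.0 to 127 in the 2i groups, neural markers to 83.4 to 92.9 against 30.7 to 63.1, blood or endothelial markers over all groups to 16.3 to 35.0 and mesoderm markers to 1.51 to 4.17 CPM. The endoderm, fibroblast, trophectoderm and neural sums move with the medium, and their part in the results was not tested. Serum return replicate 2 stood apart in Rn45s, the ribosomal RNA precursor, at 15476 CPM against 2496 to 5445 in the other 9 libraries. Without it, edgeR called 6 of the 10 repressors in place of 7 in serum return against long 2i, 3 in place of 2 against serum, 7 in place of 8 in second 2i against serum return and 6, the same number, for the second minus the first response. In such bulk libraries, fewer cells of a type and less RNA per cell cannot be told apart.

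Changes of medium were each tested with edgeR's quasi-likelihood test over all 14220 genes, and a gene counted as changed at a Benjamini-Hochberg adjusted p under 0.05. Most genes passed in most comparisons, so a call by itself says little of these repressors. In first 2i against serum, 3 of the 10 rose and 5 fell, where 70% of all genes passed, 35.1% higher and 34.9% lower. Between first and long 2i, 3 rose and 1 fell, where 61.2% of genes passed, 30.4% higher and 30.8% lower. Long 2i against serum had 3 higher and 4 lower, beside 68.9% of genes, 35.1% higher and 33.9% lower. The return to serum raised 4 and lowered 3 against long 2i, beside 71.4% of genes, 35.4% higher and 36% lower. Against the starting serum, serum return had 0 higher and 2 lower, beside 31% of genes, 16.5% higher and 14.5% lower. Second 2i against serum return had 3 higher and 5 lower, beside 65.6% of genes, 32.3% higher and 33.3% lower. Against first 2i it had 4 higher and 2 lower, beside 37.7% of genes, 18.1% higher and 19.6% lower. All 10 passed the test of any difference among the 5 groups, as 91.6% of genes did. In these comparisons of 2 groups, the CPM values of the groups did not overlap for most genes. The share ran from 64.6% (serum return against serum) to 84.8% (serum return against long 2i), so a lack of overlap also says little by itself.

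The changes were of modest size. No repressor changed 2-fold in any of these comparisons, whereas 26.9% of all genes differed at least 2-fold between first 2i and serum and 5.38% between serum return and serum. The range of group means on the log2 CPM scale was widest for Setdb1, at 0.90, and narrowest for Morc3 and Suv39h2, at 0.37 each. The median range over all tested genes was 0.86, and 9 of the 10 repressors lay below it. Among the 10450 genes that averaged 5 CPM or more, as all 10 repressors did, the median was 0.66. Setdb1, Ehmt2 (0.78) and Zfp57 (0.75) lay above that median and the others below it, Ehmt1 (0.64) only just.

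**Figure D1:**
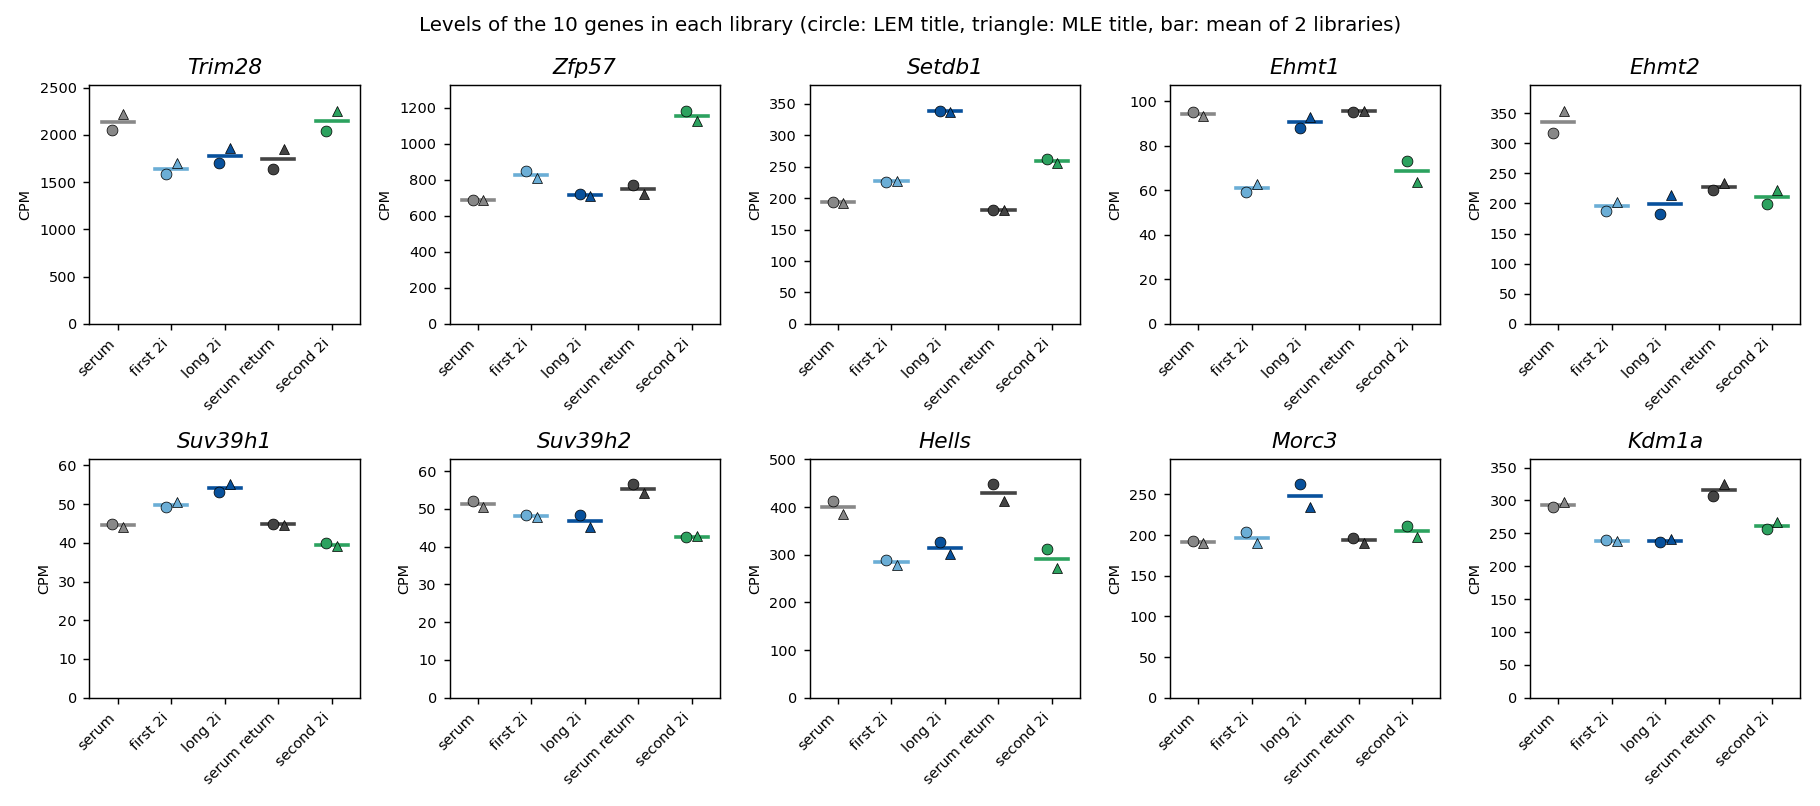
Level of each of the 10 repressors in every library, in CPM on linear axes that start at 0, for the 5 culture groups in order. Circles are LEM libraries, triangles MLE libraries and bars group means; Setdb1 and Morc3 stand highest in long 2i, Zfp57 in second 2i and Ehmt2 in the starting serum.

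Per kilobase of exon (union of exons in GENCODE M21), Trim28 was the most abundant of the 10, at 583 CPM per kb averaged over the groups. Zfp57 followed at 245, then Kdm1a at 87.9, Hells at 58.6, Ehmt2 at 56.8, Setdb1 at 51.4 and Morc3 at 49.5 CPM per kb. Ehmt1 at 13.7, Suv39h2 at 11.3 and Suv39h1 at 9.36 CPM per kb were the least abundant. The spread behind these levels is that of the library values given for each gene.

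Trim28, also called KAP1, is the scaffold on which zinc finger proteins gather Setdb1 and other corepressors. Its libraries read 2055 and 2222 CPM in serum, 1586 and 1701 in first 2i, 1704 and 1858 in long 2i, 1635 and 1849 in serum return, then 2039 and 2257 in second 2i. Serum and second 2i were high, and the 3 groups between them were low and overlapped or nearly touched one another. Trim28 fell in first 2i by 0.38 on the log2 scale (SE 0.068, edgeR adjusted p = 0.000105) and did not pass between first and long 2i (0.12, adjusted p = 0.15) or between long 2i and serum return (-0.03, adjusted p = 0.684). After the return to serum it was still below its starting level by 0.30 (SE 0.068, adjusted p = 0.00374). That call is lost without serum return replicate 1, where the difference is -0.21 and the adjusted p 0.055; over all alternatives tried the adjusted p ran from 2.26e-16 to 0.055. Second 2i then raised Trim28 by 0.30 over serum return (SE 0.068, adjusted p = 0.000932), to a level whose difference from serum was 0.01 (adjusted p = 0.938). In all 5 groups the MLE library read higher than the LEM library, by a median of 0.13 on the log2 scale.

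Zfp57 is a zinc finger protein that binds methylated imprinting control regions and recruits Trim28 there. The libraries read 689 and 687 CPM in serum, 849 and 809 in first 2i, 722 and 708 in long 2i, 774 and 724 in serum return, then 1186 and 1129 in second 2i. Second 2i stood apart from all other groups, first 2i was next, and the remaining 3 groups were low. Zfp57 rose 1.20-fold in first 2i (log2 0.27, SE 0.048, edgeR adjusted p = 4.95e-05) and fell again by 0.21 between first and long 2i (SE 0.048, adjusted p = 0.000706), to a level that did not pass against serum (0.06, adjusted p = 0.312). In second 2i it rose 1.54-fold over serum return (log2 0.63, SE 0.048, adjusted p = 3.87e-10) and was 1.40-fold above first 2i (log2 0.48, SE 0.048, adjusted p = 1.64e-07). Serum return against serum gave 0.12 (adjusted p = 0.0567), which passes without serum return replicate 2 (0.17, adjusted p = 0.0305); over all alternatives the adjusted p ran from 0.000377 to 0.394. MLE minus LEM was below 0 in all 5 groups, with a median of -0.07 on the log2 scale.

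Setdb1, the H3K9 trimethylase of the Trim28 complex, rose in both rounds of 2i. Its libraries read 194 and 192 CPM in serum, 225 and 228 in first 2i, 339 and 337 in long 2i, 181 in each library of serum return, then 263 and 256 in second 2i. No groups overlapped, and the replicates lay close together. Setdb1 rose 1.17-fold in first 2i (log2 0.23, SE 0.046, edgeR adjusted p = 0.000165) and a further 1.49-fold by long 2i (log2 0.58, SE 0.046, adjusted p = 1.09e-09), which put it 1.75-fold above serum (log2 0.81, adjusted p = 2.45e-12). On return to serum it fell 1.87-fold (log2 -0.90, SE 0.046, adjusted p = 3.5e-13), the widest change of any of the 10 in the comparisons run, to a level that did not pass against the starting serum (-0.09, adjusted p = 0.136). Second 2i raised it 1.43-fold (log2 0.52, SE 0.046, adjusted p = 3.87e-09), above first 2i by 0.19 (adjusted p = 0.00228). The exons of Setdb1 overlap those of Cers2 on the other strand over 75 bp, 1.61% of its exon length, and the strand setting of the counting is not given in the sources used here.

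Morc3 is a nuclear ATPase that represses endogenous retroviruses. Its libraries read 193 and 189.9 CPM in serum, 203 and 189.8 in first 2i, 262 and 235 in long 2i, 196 and 191 in serum return, then 211 and 198 in second 2i. Long 2i was high, and the other 4 groups overlapped or nearly touched. MLE minus LEM was below 0 in all 5 groups, with a median of -0.09 on the log2 scale. Morc3 did not pass in first 2i (0.04, edgeR adjusted p = 0.566), rose 1.26-fold between first and long 2i (log2 0.34, SE 0.058, adjusted p = 3.93e-05) and fell by 0.36 on return to serum (SE 0.058, adjusted p = 1.19e-05). Second 2i against serum return gave 0.08 (adjusted p = 0.226). Over the 10 libraries, log2 CPM of Morc3 and Setdb1 correlated at r = 0.88, the closest pair among the 10 repressors, and that of Kdm1a and Setdb1 at r = -0.80; these libraries share their groups, so the values describe the pattern and are not a test.

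The DNA before the start sites is shown for Setdb1 and Morc3, the pair with the closest pattern, and for Hells and Kdm1a, which were high in both serum groups and low in all 2i groups, so that windows of genes with different patterns can be read side by side. Each sequence is the 250 bases upstream of the annotated start in RefSeq on build GRCm38.p6, read 5′ to 3′ on the gene's strand. Capitals mark matches on either strand to CCGGAAG (a core of ETS factor sites, some of which the ERK pathway acts on), GGCGGGA (a core of E2F sites) or CTTTGAT (a core of TCF/LEF sites, the end point of Wnt/β-catenin signalling). These windows lie at chr3:95357203-95357452 (minus strand) for Setdb1, chr16:93831871-93832120 (plus strand) for Morc3, chr19:38930740-38930989 (plus strand) for Hells and chr4:136602724-136602973 (minus strand) for Kdm1a.
Setdb1: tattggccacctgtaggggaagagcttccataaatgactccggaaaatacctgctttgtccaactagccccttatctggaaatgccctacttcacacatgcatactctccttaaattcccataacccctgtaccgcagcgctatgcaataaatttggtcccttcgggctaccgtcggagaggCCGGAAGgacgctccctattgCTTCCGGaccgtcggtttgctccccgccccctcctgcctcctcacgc
Morc3: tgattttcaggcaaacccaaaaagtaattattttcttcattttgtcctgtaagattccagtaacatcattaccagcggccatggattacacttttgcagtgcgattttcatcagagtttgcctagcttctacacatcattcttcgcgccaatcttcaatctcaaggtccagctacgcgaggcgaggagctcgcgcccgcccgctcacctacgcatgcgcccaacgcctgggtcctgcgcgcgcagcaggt
Hells: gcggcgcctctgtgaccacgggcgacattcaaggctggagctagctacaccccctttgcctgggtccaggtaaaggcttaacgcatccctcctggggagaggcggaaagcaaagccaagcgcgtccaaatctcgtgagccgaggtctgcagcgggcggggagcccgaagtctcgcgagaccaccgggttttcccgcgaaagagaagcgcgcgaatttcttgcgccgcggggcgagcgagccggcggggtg
Kdm1a: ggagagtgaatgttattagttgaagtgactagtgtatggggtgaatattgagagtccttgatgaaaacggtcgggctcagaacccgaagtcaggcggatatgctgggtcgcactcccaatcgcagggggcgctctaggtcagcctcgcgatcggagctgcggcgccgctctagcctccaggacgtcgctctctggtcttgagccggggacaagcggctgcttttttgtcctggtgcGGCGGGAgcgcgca

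Setdb1 had 2 matches to CCGGAAG, the nearer ending 41 bp before the start, and its window was the only 1 of the 14 with a match, while 6.91% of all 32851 windows of this kind hold one. Kdm1a had a match to GGCGGGA 8 bp before the start, and Trim28, Suv39h2 and 1 of the 3 starts of Zfp57 also had one, so that 4 of the 14 windows held it, where 9.75% of all windows hold one. None of the 14 windows held CTTTGAT, which 3.21% of all windows hold. The windows shown for Morc3 and Hells held none of these 3 exact strings. Other forms of E2F, ETS or TCF/LEF sites were not searched for, so a window without a match may still hold one. A match is a description of letters in the window and says nothing of binding.

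Ehmt1, also called GLP, is one partner of the H3K9 mono- and dimethylase pair. Its libraries read 95.2 and 93.6 CPM in serum, 59.3 and 62.9 in first 2i, 88.0 and 93.0 in long 2i, 95.2 and 95.8 in serum return, then 73.3 and 63.8 in second 2i. First and second 2i were low, and serum, long 2i and serum return were high and close together. Ehmt1 fell 1.55-fold in first 2i (log2 -0.63, SE 0.066, edgeR adjusted p = 4.09e-08) and rose 1.48-fold between first and long 2i (log2 0.57, SE 0.067, adjusted p = 3.18e-07), so that long 2i did not pass against serum (-0.06, adjusted p = 0.418). It fell again by 0.48 in second 2i (SE 0.065, adjusted p = 1.99e-06). Second against first 2i gave 0.17 (adjusted p = 0.0595), which passes without second 2i replicate 2 (0.26, adjusted p = 0.0151); over all alternatives the adjusted p ran from 0.00708 to 0.582.

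Ehmt2, also called G9a, is the other partner of the pair. The libraries read 318 and 354 CPM in serum, 188 and 203 in first 2i, 183 and 215 in long 2i, 222 and 234 in serum return, then 199 and 222 in second 2i. Serum was high, and all 4 later groups were low. Among these, serum return lay above first 2i (log2 0.22, SE 0.078, edgeR adjusted p = 0.0223), and the other pairs overlapped or nearly touched. Ehmt2 fell 1.72-fold in first 2i (log2 -0.78, SE 0.078, edgeR adjusted p = 4.81e-07), did not pass between first and long 2i (0.03, adjusted p = 0.793), and in serum return still stood 1.47-fold below the starting serum (log2 -0.56, SE 0.077, adjusted p = 0.000112). Serum return against long 2i gave 0.19 (SE 0.079, adjusted p = 0.0391). This last call rests on single libraries: the difference is 0.09 (adjusted p = 0.33) without long 2i replicate 1, 0.31 (adjusted p = 0.00206) without long 2i replicate 2, 0.23 (adjusted p = 0.0565) without serum return replicate 1 and 0.16 (adjusted p = 0.185) without serum return replicate 2, within a range of 1.54e-07 to 0.33 over all alternatives. Second 2i against serum return did not pass (-0.12, adjusted p = 0.212). As for Trim28, the MLE library was the higher in all 5 groups, by a median of 0.16.

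Suv39h1, on the X chromosome, encodes an H3K9 trimethylase of pericentromeric chromatin. Its libraries read 44.9 and 44.1 CPM in serum, 49.3 and 50.5 in first 2i, 53.0 and 55.1 in long 2i, 44.9 and 44.6 in serum return, then 39.8 and 39.2 in second 2i. The 2 serum groups overlapped, the first round of 2i lay above them and the second below. Suv39h1 rose by 0.28 in long 2i against serum (SE 0.065, edgeR adjusted p = 0.000735), fell by 0.27 on return (SE 0.065, adjusted p = 0.000813), and was 0.34 lower in second than in first 2i (log2 -0.34, SE 0.066, adjusted p = 0.000476). Weaker differences were 0.16 in first 2i against serum (SE 0.065, adjusted p = 0.0299) and -0.18 in second 2i against serum return (SE 0.066, adjusted p = 0.0212). The first of these misses the threshold without serum replicate 1 (adjusted p = 0.0619), serum replicate 2 (0.105), first 2i replicate 1 (0.0572) or first 2i replicate 2 (0.129), and in DESeq2 (0.128), within 0.00961 to 0.129 over all alternatives. The second misses it without serum return replicate 1 (adjusted p = 0.0854), serum return replicate 2 (0.0637), second 2i replicate 1 (0.0617) or second 2i replicate 2 (0.104), and in DESeq2 (0.0656), within 0.00559 to 0.104.

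Suv39h2, its paralog, was the least variable of the methyltransferases among the 10. The libraries read 52.1 and 50.4 CPM in serum, 48.5 and 48.0 in first 2i, 48.5 and 45.3 in long 2i, 56.5 and 54.1 in serum return, then 42.4 and 42.9 in second 2i. Second 2i was lowest and serum return highest, with no overlap between them, while first and long 2i overlapped. None of the 3 comparisons among serum, first and long 2i passed (-0.09, -0.04 and -0.13, edgeR adjusted p = 0.236, 0.618 and 0.0908). Suv39h2 rose by 0.24 in serum return against long 2i (SE 0.066, adjusted p = 0.00275) and fell by 0.38 in second 2i (SE 0.066, adjusted p = 4.31e-05); the rise gives 0.19 and an adjusted p of 0.0547 without long 2i replicate 2, within 0.000103 to 0.0547 over all alternatives. Second against first 2i, at -0.18 (adjusted p = 0.0437), misses the threshold without first 2i replicate 1 (0.154), first 2i replicate 2 (0.121), second 2i replicate 1 (0.149), second 2i replicate 2 (0.133) or either serum return library (0.0539), within 0.0104 to 0.154. Its exons overlap those of Dclre1c on the other strand over 357 bp, 8.25% of its exon length in GENCODE M21, and any effect on its counts was not tested.

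Hells, also called LSH, is a chromatin remodeller that supports DNA methylation of repeats. Its libraries read 413 and 385 CPM in serum, 289 and 279 in first 2i, 327 and 301 in long 2i, 448 and 412 in serum return, then 312 and 272 in second 2i. The 2 serum groups were high and overlapped, and all 3 groups in 2i were low, with no library of one kind within the range of the other. Hells fell 1.41-fold in first 2i (log2 -0.49, SE 0.063, edgeR adjusted p = 1.26e-06), rose 1.37-fold on return to serum (log2 0.46, SE 0.063, adjusted p = 3.01e-06) and fell 1.47-fold in second 2i (log2 -0.56, SE 0.063, adjusted p = 2.75e-07). Long against first 2i gave 0.14 (adjusted p = 0.0596), which passes without long 2i replicate 2 (0.20, adjusted p = 0.03), second 2i replicate 1 (0.14, adjusted p = 0.0357) or second 2i replicate 2 (0.14, adjusted p = 0.036), within 4.31e-05 to 0.429 over all alternatives. MLE minus LEM was below 0 in all 5 groups, with a median of -0.12 on the log2 scale.

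Kdm1a, also called LSD1, removes methyl groups from histones within the CoREST corepressor complex and is known to hold retroelements and early embryonic genes silent. Its libraries read 289.8 and 297 CPM in serum, 239.8 and 238 in first 2i, 236 and 241 in long 2i, 306 and 325 in serum return, then 256 and 267 in second 2i. As for Hells, both serum groups were above all 2i groups. Kdm1a fell by 0.30 in first 2i (SE 0.048, edgeR adjusted p = 1.45e-05), rose by 0.40 on return (SE 0.048, adjusted p = 2.57e-07) and fell by 0.27 in second 2i (SE 0.048, adjusted p = 5.06e-05). First and long 2i had means of 238.7 and 238.6 CPM (adjusted p = 0.993). Second against first 2i, at 0.13 (adjusted p = 0.0386), misses the threshold without first 2i replicate 1 (0.112), first 2i replicate 2 (0.139), second 2i replicate 1 (0.053) or second 2i replicate 2 (0.254), within 0.000406 to 0.254 over all alternatives. Log2 CPM of Hells correlated over the 10 libraries with that of Suv39h2 (r = 0.85), Kdm1a (r = 0.84) and Ehmt1 (r = 0.81), again as a description.

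**Figure D2:**
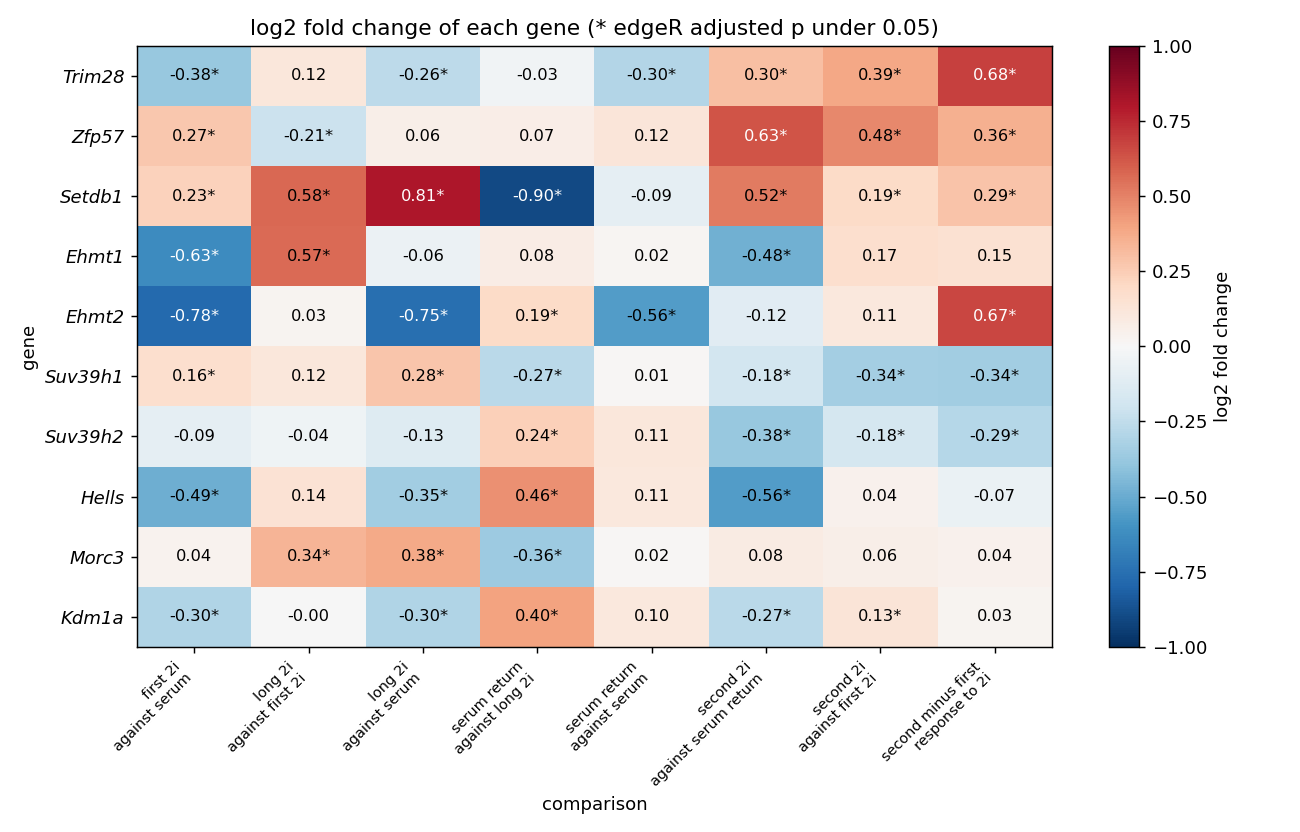
log2 fold change of each of the 10 repressors (rows) in each of 8 comparisons (columns), coloured from -1 (blue) to 1 (red), with an asterisk where edgeR's adjusted p was under 0.05. Setdb1 reaches 0.81 in long 2i and -0.90 on return to serum. Only Trim28 and Ehmt2 carry an asterisk for serum return against serum, in this fit without a replicate block.

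After 6 passages back in serum, Trim28 (-0.30) and Ehmt2 (-0.56) were below their starting level, and without serum return replicate 1 only 1 of the 10 passed, Ehmt2. The other 8 differed from serum by -0.09 (Setdb1) to 0.12 (Zfp57) and did not pass in the fit without a replicate block. With the title series as a block, Setdb1, Zfp57, Hells and Kdm1a passed as well (edgeR adjusted p = 0.0194, 0.000377, 0.00249 and 0.00468). That made 6 of the 10, where 43.4% of all genes passed. The median difference of the 10 was 0.016 beside 0.015 for all genes, and the median size without sign was 0.11 against 0.19.

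The second exposure to 2i was not a repeat of the first for 6 of the 10 repressors. The test compares the step from serum return to second 2i with the step from serum to first 2i, and 39.4% of all genes passed it, 18.4% with a higher and 21% with a lower second response, beside 4 and 2 of the 10. Trim28 fell by 0.38 the first time and rose by 0.30 the second, a difference of 0.68 (SE 0.096, edgeR adjusted p = 4.43e-05). Ehmt2 gave -0.78 and then -0.12, a difference of 0.67 (SE 0.11, adjusted p = 0.00031), from a starting level that was lower the second time. Zfp57 and Setdb1 rose both times and more the second, by 0.36 (SE 0.068, adjusted p = 0.00033) and 0.29 (SE 0.065, adjusted p = 0.0016). Suv39h1 went from 0.16 to -0.18, a difference of -0.34 (SE 0.093, adjusted p = 0.00573). Suv39h2 gave -0.29 (SE 0.093, adjusted p = 0.0187), a call that is lost without first 2i replicate 1 (0.0585), second 2i replicate 1 (0.0504), serum replicate 2 (0.0585) or serum return replicate 1 (0.0803), within 0.002 to 0.0803 over all alternatives. For Ehmt1 (0.15, adjusted p = 0.216), Hells (-0.07, 0.576), Morc3 (0.04, 0.709) and Kdm1a (0.03, 0.773) the difference did not pass, with SEs of 0.068 to 0.093, which does not show that their responses were alike. First and second 2i also differ in passages, 5 to 6 against 4 to 5. Serum return and second 2i both come after 13 or more passages of 2i, and the labels give no group kept in serum for as long. Earlier 2i and time in culture therefore cannot be told apart in this difference.

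**Figure D3:**
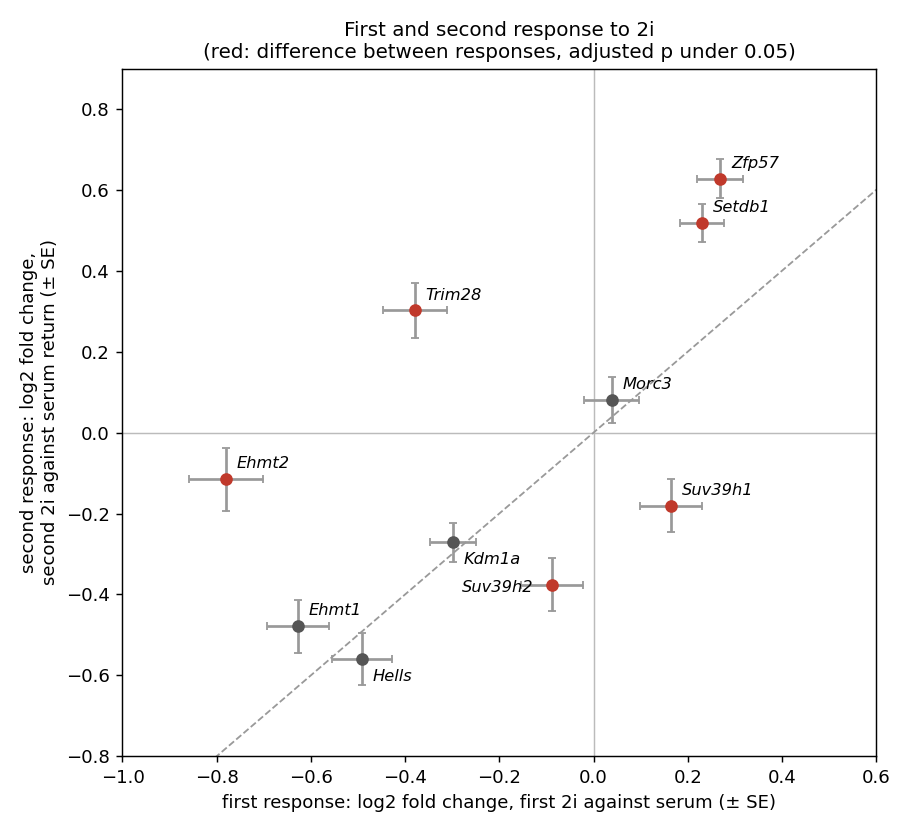
First response to 2i (x axis, log2 fold change of first 2i against serum) and second response (y axis, second 2i against serum return) for the 10 repressors, with bars of 1 SE and a dashed line of equal responses. Red points passed the test of the difference; Trim28 lies at -0.38 and 0.30, while Hells, Kdm1a, Ehmt1 and Morc3 lie near the line.

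Genes that share the pattern of the 3 most variable repressors were named by the highest correlation of log2 CPM over the 10 libraries. They were sought among 9802 of the genes that averaged 5 CPM or more. Symbols that are only model names or accessions were left out, as were ribosomal protein and histone genes. For Setdb1 they included Atp6v1b2 (r = 0.994) and Urm1 (r = 0.992). For Ehmt2 they were Uqcrc1 (r = 0.973), Nans (r = 0.971) and Slc9a3r1 (r = 0.968), and for Zfp57 they were Cyp2b23 (r = 0.989), Ticrr (r = 0.964) and Sept8 (r = 0.961). None of those named is another of the 10 repressors.

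Partners of Trim28 and Setdb1 that are not among the 10 moved in both directions. Of 21 tested, 10 rose and 5 fell in long 2i against serum (median log2 0.14), beside 35.1% higher and 33.9% lower among all genes (median 0.01). On return 4 rose and 13 fell (median -0.22), beside 35.4% higher and 36% lower (median -0.01). Morc1, a germ cell relative of Morc3, went from 107 ± 6.8 CPM in serum to 209.8 ± 1.9 in first 2i and 325 ± 20 in long 2i (SD, n = 2), a 3.04-fold rise (edgeR adjusted p = 1.68e-15). In serum return Morc1 read 127 ± 5.8 CPM. Chd3, a remodeller of the NuRD family that Trim28 binds, rose 2.27-fold in long 2i (122 ± 6.3 against 53.7 ± 3.0 CPM, adjusted p = 1.3e-12) and fell below its serum level on return, to 40.4 ± 2.0 CPM (adjusted p = 0.000145). Cbx5, the heterochromatin protein HP1α that reads H3K9 methylation, rose 1.54-fold in long 2i (adjusted p = 2.4e-07). It was still above serum in serum return (log2 0.31, edgeR adjusted p = 0.00213).

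Of the 11 zinc finger recruiters tested, 6 rose and 2 fell in first 2i, beside 35.1% and 34.9% of all genes. Between first and long 2i 0 rose and 3 fell, beside 30.4% and 30.8%. Zfp809, which brings Trim28 to the primer binding site of proviruses, stood at 32.4 ± 1.4 CPM in serum and 56.2 ± 1.4 in first 2i (1.73-fold, edgeR adjusted p = 7e-09). Zfp819 went from 26.5 ± 1.5 CPM in serum and 21.2 ± 2.5 in first 2i to 2.45 ± 0.63 in long 2i, 10.9-fold below serum (adjusted p = 2.07e-14), and to 10.5 ± 0.15 in serum return, still below serum (log2 -1.33, adjusted p = 3.34e-08). In the HUSH complex, which silences retroelements with Setdb1, 3 of 4 tested genes rose in long 2i against serum and 0 fell, beside 35.1% and 33.9% of all genes. Its subunit Fam208a (Tasor) read 146 ± 7.2 CPM in serum and 179.8 ± 8.4 in long 2i, and was highest in serum return at 209.8 ± 8.9 CPM (log2 0.52 against serum, adjusted p = 9.25e-06).

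Among partners of Ehmt1 and Ehmt2 and other SET domain genes, 2 of 10 tested rose and 4 fell in long 2i against serum, beside 35.1% and 33.9% of all genes. Zfp462, a zinc finger partner of the pair, fell 1.96-fold in first 2i (78.4 ± 4.0 against 154 ± 11 CPM, edgeR adjusted p = 1.27e-11). Prdm16 fell 4.46-fold in long 2i, from 15.5 ± 0.52 to 3.45 ± 0.95 CPM (adjusted p = 4.35e-11). The 2 that rose include Suv420h1, an enzyme for a different histone mark, at 95.4 ± 0.44 against 56.0 ± 1.0 CPM (adjusted p = 3.14e-10).

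The enzymes that remove H3K9 methylation moved in both directions. Of 10 tested, 3 rose and 3 fell in first 2i and again 3 and 3 in long 2i against serum, a share close to the 70% and 68.9% of all genes called there. Kdm3a, an H3K9 mono- and didemethylase, read 187 ± 1.3 CPM in serum, 325 ± 11 in first 2i, 368 ± 13 in long 2i, 183 ± 6.9 in serum return and 454 ± 15 in second 2i. It rose 1.73-fold in first 2i (edgeR adjusted p = 1.37e-11) and 2.48-fold in second 2i (adjusted p = 4.28e-15), and Kdm3b rose 1.67-fold and 1.76-fold at the same steps (adjusted p = 3.22e-11 and 7.03e-12). Kdm4c, a tridemethylase, did the reverse, at 179 ± 1.9 CPM in serum, 103 ± 3.9 in first 2i, 105 ± 7.4 in long 2i, 198 ± 4.5 in serum return and 98.8 ± 5.2 in second 2i; it fell 1.73-fold in first 2i (adjusted p = 1.79e-10). Jmjd1c, of the same family as Kdm3a, fell 1.61-fold in first 2i (adjusted p = 4.81e-10).

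In the corepressor complex of Kdm1a, 2 of 11 tested genes rose and 6 fell in long 2i against serum (median log2 -0.34), beside 35.1% higher and 33.9% lower among all genes (median 0.01). On return 7 rose and 2 fell (median 0.53), beside 35.4% higher and 36% lower (median -0.01). Gse1 fell 3.20-fold in first 2i, from 238 ± 22 to 74.3 ± 0.22 CPM (edgeR adjusted p = 3.69e-13), and was at 242 ± 15 CPM in serum return. Phf21a, the subunit that reads unmethylated H3K4, fell 3.02-fold in long 2i, from 78.8 ± 0.25 to 26.1 ± 1.8 CPM (adjusted p = 8.31e-14). Hmg20b moved the other way, 1.99-fold up in first 2i (62.2 ± 1.7 against 31.2 ± 1.0 CPM, adjusted p = 3.73e-11).

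Hells works beside the machinery that maintains DNA methylation, and 1 of its 6 tested partners rose and 3 fell in long 2i against serum, beside 35.1% and 33.9% of all genes. Uhrf2 read 95.1 ± 1.8 CPM in serum, 57.2 ± 1.4 in long 2i (1.66-fold lower, edgeR adjusted p = 7.58e-10) and 109 ± 4.3 in serum return. Dnmt1, the maintenance methyltransferase, rose 1.18-fold in first 2i (adjusted p = 0.000143). Hells is also expressed with DNA replication, and of 25 replication genes 12 fell and 3 rose in first 2i, beside 34.9% and 35.1% of all genes, while 16 rose and 3 fell on return, beside 35.4% and 36%. Ccne1, cyclin E1, fell 5.24-fold in first 2i, from 359.6 ± 14 to 68.6 ± 3.5 CPM (adjusted p = 9.12e-19). The replication genes had a median log2 change of -0.12 in first 2i and 0.16 on return. For 12 housekeeping genes the medians were -0.16 (2 higher, 5 lower) and 0.22 (7 higher, 5 lower) at these steps. The medians of both lists had the same sign at each of these steps. The part of replication in the levels of Hells was not tested.

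**Figure D4:**
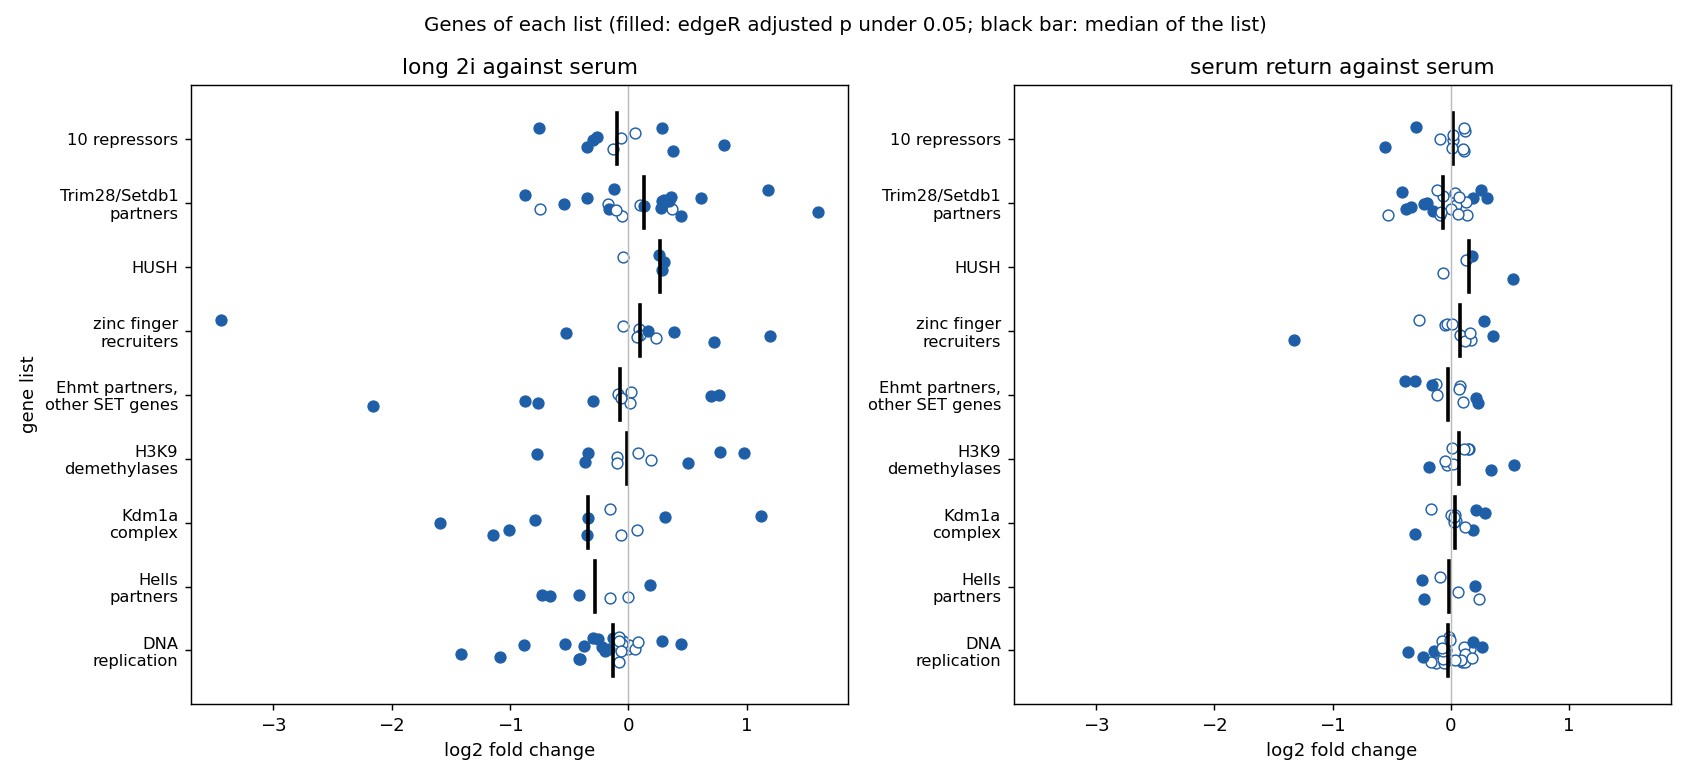
log2 fold change of every tested gene of the 10 repressors and of 8 partner lists (rows; germline and 2-cell genes are not drawn) in long 2i against serum (left) and serum return against serum (right), filled where edgeR's adjusted p was under 0.05, with a black bar at the list's median. The medians lie between -0.34 and 0.27 on the left, the spread within lists is wider, and Zfp819 is the far point at -3.44.

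Among germline and 2-cell stage genes known as targets of these repressors, most of those that passed the filter were higher after the return than before. Of 26 such genes 19 passed the filter, and in serum return against serum 15 of the 19 rose and none fell, with a median log2 difference of 1.18 against 0.02 over all genes, where 16.5% of all genes were higher. DESeq2 called 8 of them, and the other alternatives, leaving out each library among them, 12 to 16 (13 without serum return replicate 2). Several of these genes have near-identical copies, Zscan4 and Usp17l among them, and reads with more than 1 alignment were not counted, so their values are uncertain. The filter keeps a gene that reaches its count in 1 group alone, so some of the 19 may have passed only through a group where they were high. The list was also chosen with earlier results of these data known. DESeq2 gave an adjusted p to 12860 genes in this comparison, and a gene without one counted as not called. Dazl, a germ cell RNA-binding protein, read 7.07 ± 0.56 CPM in serum, 33.3 ± 4.3 in first 2i, 75.9 ± 7.8 in long 2i and 16.0 ± 0.91 in serum return (2.27-fold above serum, edgeR adjusted p = 8.06e-07). Taf7l was 3.05-fold above serum in serum return (5.85 ± 0.65 against 1.94 ± 0.58 CPM, adjusted p = 1.48e-05). Fkbp6 rose to 92.9 ± 0.25 CPM in long 2i from 1.98 ± 0.37 in serum (adjusted p = 3.31e-19), and Mael fell from 12.7 ± 1.1 to 1.16 ± 0.22 CPM (adjusted p = 1.23e-12), so the list did not move as one in long 2i, where 6 rose and 5 fell. Fibroblast and endoderm marker sums were also higher in serum return than in serum, at 25.3 to 30.4 against 14.9 to 18.7 CPM and 51.8 to 52.8 against 40.6 to 43.8 CPM, and their part in this rise was not tested. The higher level was not confined to serum return. In second 2i against serum, 10 of the 19 were higher and 5 lower (median log2 1.40), beside 33.6% and 32.8% of all genes (median 0.01).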

How the data were processed

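Total RNA of 10 libraries was sequenced, and the deposited values are raw counts of reads for each gene. HTSeq 0.5.4p5, TopHat2 2.0.4 and CASAVA 1.8.2 are named in the submitters' processing notes, with DESeq2 and build mm9. Which annotation, strand setting and read layout served is not given in the sources used here. The 5 summary categories were left out: records aligned to more than 1 place were 33.4 to 36.5%, outside features 10.3 to 11.8%, ambiguous 0.687 to 0.730% and in genes 51.2 to 54.8%.

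Genes passing filterByExpr by group (minimum count 10, minimum total 15) were tested with edgeR 4.0.16 in R 4.3.3, using TMM factors and a robust quasi-likelihood fit of all 10 libraries by group, with 5 residual degrees of freedom and a common biological coefficient of variation of 0.049. P-values were two-sided and Benjamini-Hochberg adjusted over the 14220 genes. SEs came from the log2 fold change and F. CPM are counts scaled to 1000000 over the tested genes with TMM factors, given as mean ± SD of 2 libraries; log2 CPM used a prior count of 2.

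The 10 members and the partner lists were chosen with earlier results of these data known. Per list and comparison, up to 4 genes are named: the largest changes among those called that average 5 CPM or more in their higher group and go the same way in all 4 library pairs, and not every such gene is given. Genes most like a repressor are the 3 with the highest correlation, of which 1 is not reported here. One wrong alias in the partner list was corrected after the data were seen. Alternatives were DESeq2 size factors in edgeR (RLE), library totals, no filter, the DESeq2 1.42.0 Wald test, only the groups compared, a replicate block and leaving out each library; applying these to partner genes and to the germline list was chosen after seeing the data. Promoters came from RefSeq (GRCm38.p6, 10 of 10 genes matched, 14 starts) and exon lengths from GENCODE M21 (GRCm38), neither being the build of the counts.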

Additional observations from a re-analysis of the deposited data

Results flagged for a closer look

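The response to 2i differed between the first and the second exposure, by the test of the difference itself in edgeR, for 6 of the 10 repressors. Second minus first response was 0.68 on the log2 scale for Trim28, with serum and second 2i the high groups, and 0.67 for Ehmt2, whose level before the second exposure was already low. It was 0.36 for Zfp57 and 0.29 for Setdb1, which both rose more the second time. It was -0.34 for Suv39h1 and -0.29 for Suv39h2, the paralogous pair. The share of all genes that passed the same test was 39.4%. Earlier 2i and time in culture cannot be told apart in this difference.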

How the results depend on the processing

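Each of 80 results (10 genes, 8 comparisons) was recomputed under 16 alternatives. Of the 48 that passed, 40 passed in every alternative, 8 missed the threshold in at least 1, and 0 reversed; of the 32 that did not pass, 20 passed in none and 12 in at least 1. RLE factors changed no call. Leaving out 1 library gave 7 to 8 called genes in first 2i against serum, 4 to 5 in long against first 2i, 7 in long 2i against serum, 6 to 7 in serum return against long 2i, 1 to 3 in serum return against serum, 7 to 8 in second 2i against serum return, 4 to 6 in second against first 2i, 5 to 6 in second minus first response and 10 for any difference. When a library was left out, the lone library of its group was assumed to vary like the others.

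With the title series as replicate block, serum return against serum gave 6 called genes (3 higher, 3 lower) in place of 2, where 43.4% of all genes were called in place of 31%. Over all comparisons the block lost no call and added 12. These were Setdb1, Zfp57, Hells and Kdm1a in serum return against serum, Trim28 and Hells in long against first 2i, Suv39h2 in long 2i against serum, Zfp57 in serum return against long 2i, Ehmt2 and Morc3 in second 2i against serum return, and Ehmt1 and Ehmt2 in second against first 2i. Deviations of libraries with the same letters correlated at r = 0.099 to 0.168, above 0.1 in 9 of 10 pairs of groups. The labels do not say what the letters stand for and not every pair was above 0.1, so the fit without the block was kept, although 5 of the 10 genes differed between the letters with 1 sign in all 5 groups.

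Differences that did not pass changed sign in some alternatives: Kdm1a in long against first 2i was 0.0017 and in second minus first response -0.0025 with library totals, and Suv39h1 in serum return against serum was -0.00054 with only the groups compared. Leaving out 1 library gave ranges across 0 in first 2i against serum for Morc3 (-0.0097 to 0.089), and in long against first 2i for Ehmt2 (-0.093 to 0.13), Suv39h2 (-0.097 to 0.0080) and Kdm1a (-0.015 to 0.0055). It did so in serum return against long 2i for Trim28 (-0.12 to 0.054), in serum return against serum for Suv39h1 (-0.0033 to 0.023) and Morc3 (-0.0046 to 0.036), in second against first 2i for Hells (-0.061 to 0.13), and in second minus first response for Hells (-0.17 to 0.026), Morc3 (-0.0061 to 0.098) and Kdm1a (-0.015 to 0.069). The germline list had 8 genes higher in serum return under DESeq2 in place of 15. In that comparison DESeq2 gave an adjusted p to 12860 genes, and a gene without one counted as not called. The cause of these shifts was not tested. The number of libraries, 2 a group with 5 residual degrees of freedom, limits the precision. The 3 further comparisons, second 2i against long 2i or against serum and serum return against first 2i, were not recomputed.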
